A study of Mus musculus with 6 samples.

Results

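Matrix metalloproteinases (MMPs), ADAMTS proteases and their tissue inhibitors (TIMPs) were taken from the deposited gene table by symbol: 40 of its 28802 genes matched, 19 of them MMP, 17 ADAMTS and 4 TIMP genes. Poly(A) RNA of mouse cranial bone, so labelled, was sequenced in 6 libraries. The label of 3 libraries is 500 µM metformin, a biguanide drug of type 2 diabetes, carried in a composite scaffold (α-CSH/nHA: calcium sulfate hemihydrate of the α form with hydroxyapatite of nanometre size, both bone fillers), and the label of the other 3 is control, 0 µM. A skull defect of 5 mm is described, with no strain or age. Whether the control had the filler alone, whether tissue or cells in culture gave the RNA, and whether each replicate was a separate animal or culture are not in the labels, so the p-values speak to how far these 6 libraries spread, possibly for technical reasons alone.

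MMPs are zinc endopeptidases, made as inactive zymogens, which are secreted or held at the cell surface and cut collagens and other matrix proteins. ADAMTS proteases are secreted relatives with thrombospondin repeats, of which some cut the large proteoglycans and others trim procollagens. TIMPs bind the active site of MMPs, and Timp3 also inhibits several ADAMTS proteases. In bone, Mmp13 is the collagenase of osteoblasts and hypertrophic chondrocytes, Mmp9 is best known from osteoclasts, and Mmp14 at the cell surface activates Mmp2 with Timp2 as a bridge.

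Total estimated counts were 64683314 to 70955139 in the scaffold libraries and 63174927 to 70318881 in the control libraries, with about 4 counts to each read pair. Of the markers fixed for osteoblasts, 6 of 6 stood at 1 FPKM (fragments per kilobase of transcript, scaled to depth) or more, with summed levels of 4339 to 4433 FPKM in scaffold libraries and 3331 to 3875 in control libraries. Endothelial, neutrophil and erythroid markers stood below 1 FPKM, and so did 5 of 6 osteoclast markers, all but Ctsk. The same held for 5 of 7 macrophage and monocyte markers, all but Cd14 and Lyz2. Of the osteoblast markers 4 were called higher by edgeR and so were 3 of 4 tested osteocyte markers (2.85% of all tested genes were called higher), whose list summed to 39.7 to 42.9 FPKM in scaffold libraries and 30.9 to 36.2 in control libraries. The chondrocyte markers summed to 80.3 to 81 FPKM and 56.5 to 62.3, scaffold before control, nearly all of it Col2a1 and Sox9, with Acan near 0. Not every marker moved with these sums. Sox9 had 24.1 and 27.1 FPKM, Pdpn (osteocyte list) 22 and 25.2 and Runx2 (osteoblast list) 25 and 29, scaffold before control. None of these was called by edgeR. In the same order, Col1a1 had 2163 and 2173 FPKM, Ibsp 2116 and 1266 and Col2a1 56.4 and 31.8. The part of these cell types in the results on the proteases was not tested.

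The families were carried by a few abundant transcripts that did not pass the test, while 2 inhibitors rose and 2 proteases of lower level fell with the metformin scaffold. Timp4 rose 1.55-fold and Timp1 1.37-fold, and Adamts6 fell to 0.597 and Mmp9 to 0.812 of the control level. A gene passed at an adjusted p under 0.05 over all genes tested with edgeR's quasi-likelihood test. The Mmp9 call was at the edge of this threshold (edgeR adjusted p = 0.0491) and held in only 5 of 15 alternative settings of the analysis. Of the 40 members 29 were tested, and 4 of them (13.8%) passed, beside 4.31% of all 17375 tested genes. The 2 higher members stood beside 2.85% of all genes called higher, and the 2 lower members beside 1.46% called lower. The median log2 fold change (scaffold over control) was 0.04 over the tested members and -0.0045 over all tested genes. DESeq2, which called 10.1% of the 14002 genes it gave an adjusted p (6.31% higher, 3.83% lower), called 9 members: the same 4, with Mmp14 and Adamts12 also higher and Timp3, Adamts1 and Adamts9 also lower. In bulk RNA, fewer cells of a type and less RNA per cell cannot be told apart. FPKM values are as deposited; fold changes come from scaled counts and can differ slightly from the ratio of FPKM means.

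**Figure D1:**
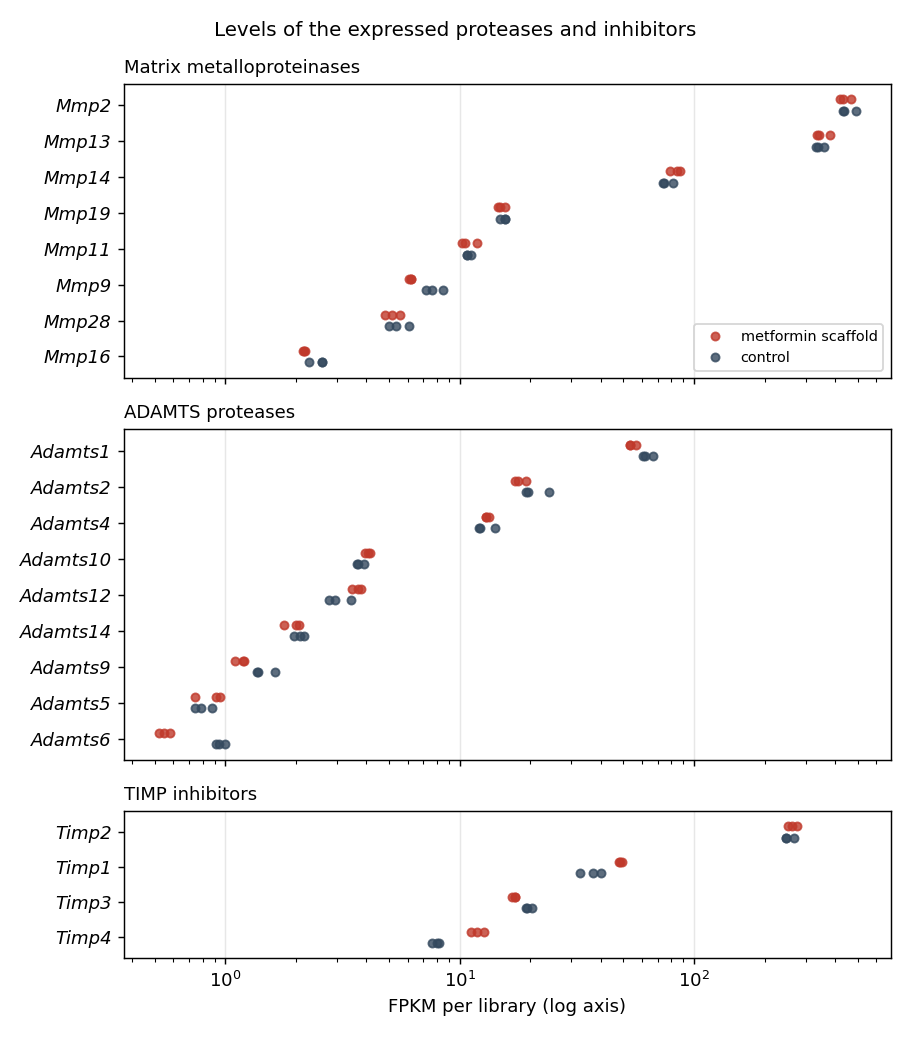
FPKM per library on a log axis for the 21 members with a mean of at least 0.5 FPKM, by family, with 3 metformin scaffold libraries above 3 control libraries for each gene. Mmp2, Mmp13 and Timp2 stand at 248 FPKM or more in each library, and the groups of Timp1, Timp4, Mmp9 and Adamts6 do not overlap.

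Levels differed widely between members. On the FPKM scale, which allows for transcript length, 19 of 40 members averaged at least 1 and 11 at least 10. Mmp2 ranked 67 and Mmp13 94 among all 28802 genes by mean FPKM, and together they made up 86.3% to 87.1% of the summed FPKM of the MMP genes in each library. Timp2 held 76.6% to 78.2% of the TIMP sum in scaffold libraries and 78.7% to 81.3% in control libraries, and Adamts1 held 54.3% to 56.5% and 56.4% to 58.9% of the ADAMTS sum. So each family was led by the same genes in both groups.

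The summed MMP level was 917 ± 36.4 FPKM in scaffold libraries and 915 ± 27.7 in control libraries (here and later SD, n = 3 per group). The summed ADAMTS level was 98.2 ± 1.63 FPKM and 109 ± 7.82, and the summed TIMP level 340 ± 12.2 and 318 ± 7.67, scaffold before control. The ratio of the TIMP sum to the MMP sum was 0.375, 0.376 and 0.363 in scaffold libraries 1 to 3, and 0.346, 0.346 and 0.351 in control libraries 1 to 3. The groups did not overlap in that ratio of transcript levels, which is given without a test.

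Among the gelatinases, which cut denatured collagen, Mmp2 (ENSMUSG00000031740, chromosome 8, 92827291 to 92853420, GRCm38) had 419, 466 and 434 FPKM in scaffold libraries and 490, 437 and 434 FPKM in control libraries. The groups overlapped, and its log2 fold change was -0.01 ± 0.06 (SE; edgeR adjusted p = 0.979), with a 95% interval of 0.904 to 1.1 for the fold. Mmp9 (ENSMUSG00000017737, chromosome 2, 164940780 to 164955850) had 6.22, 6.18 and 6.07 FPKM in scaffold libraries, and 7.65, 8.49 and 7.21 FPKM in control libraries. Every scaffold library lay below every control library. The log2 fold change of Mmp9 was -0.30 ± 0.08 (edgeR adjusted p = 0.0491), a fold of 0.812 with a 95% interval of 0.724 to 0.911. This call was at the edge of the threshold: it was lost without each of the 6 libraries in turn (edgeR adjusted p from 0.0589 to 0.185) and in 10 of 15 alternative settings (adjusted p from 0.00829 to 0.185 over them), with a negative fold change in each.

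Mmp9 is a product of osteoclasts, macrophages and neutrophils as well, so their markers are set beside it. Besides Ctsk, the osteoclast markers Acp5, Calcr, Oscar, Ocstamp and Atp6v0d2 summed to 0.0518 to 0.123 FPKM in scaffold libraries and 0.195 to 0.27 FPKM in control libraries. Acp5 had 0.0207 ± 0.0188 and 0.0846 ± 0.0756 FPKM and Oscar 0.0259 ± 0.0259 and 0.119 ± 0.0601, scaffold before control, with overlapping groups in both. Calcr was listed at 0 in all 3 scaffold libraries and 2 control libraries, and Ocstamp in all 3 scaffold libraries and 1 control library. Atp6v0d2 lay the other way, with 0.015, 0.0715 and 0.0308 FPKM in scaffold libraries and 0, 0 and 0.0257 in control libraries. Ctsk, the osteoclast cathepsin that was also high in these libraries, had 123 ± 5.22 FPKM in scaffold libraries and 108 ± 6.5 in control libraries and did not pass (edgeR adjusted p = 0.0746). The 5 neutrophil markers summed to 0 to 0.214 FPKM in scaffold libraries and 0.121 to 0.517 in control libraries. S100a9 and Elane were listed at 0 in all 3 scaffold libraries, Elane also in 2 control libraries, and Ngp in 2 scaffold and all 3 control libraries. S100a8 had 0.0962, 0 and 0.0672 FPKM in scaffold libraries and 0, 0.0477 and 0 in control libraries, so the members of these lists did not all lie the same way. The 7 macrophage and monocyte markers summed to 11.1 to 12.9 FPKM in scaffold libraries and 9.43 to 13.3 in control libraries, most of it Lyz2. Of these 7, Lyz2 and Cd14 stood at 1 FPKM or more, and Adgre1, Csf1r, Mrc1, Itgam and Cd68 below it. Cd68, the highest of these 5, had 0.523 ± 0.2 and 0.639 ± 0.316 FPKM, scaffold before control. The neutrophil markers and the osteoclast markers other than Ctsk were near 0, while Ctsk, Lyz2 and Cd14 were not. The part of these cell types in the level of Mmp9, or in its lower level with the scaffold, was not tested.

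Of the collagenases, which cut intact fibrillar collagen, Mmp13 (ENSMUSG00000050578, chromosome 9, 7272514 to 7283331) had 336, 343 and 382 FPKM in scaffold libraries and 331, 358 and 340 FPKM in control libraries. The groups overlapped (log2 fold change 0.08 ± 0.07, edgeR adjusted p = 0.562), and the 95% interval of the fold was 0.958 to 1.17. Mmp8, the neutrophil collagenase, had 0.0809, 0.0578 and 0.0207 FPKM in scaffold libraries and 0.13, 0.0692 and 0.136 in control libraries, and Mmp1a was listed at 0 in 5 of 6 libraries. Mmp13 was thus the only one of the 3 collagenase genes above 1 FPKM.

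Mmp13 stands at one end of a run on chromosome 9 of which 7 MMP genes are in the deposited table, these all on the plus strand and starting within 299 kb of each other. In order from Mmp13, the other 6 are Mmp12 (a macrophage elastase), Mmp3 (stromelysin 1, which cuts proteoglycans and activates other MMPs), Mmp1a, Mmp10 (stromelysin 2), Mmp8 and Mmp27. Their mean levels over all libraries were 0.00165 to 0.0977 FPKM, against 348 FPKM for Mmp13. The closest of them, Mmp12, starts 71.9 kb from Mmp13 and had 14 estimated counts over the 3 scaffold libraries and 4 over the 3 control libraries. The high level was thus limited, among these 7 genes, to Mmp13. Mmp3 had 0.0518, 0.142 and 0.126 FPKM in scaffold libraries, and 0, 0.125 and 0.141 in control libraries, with overlapping groups.

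**Figure D2:**
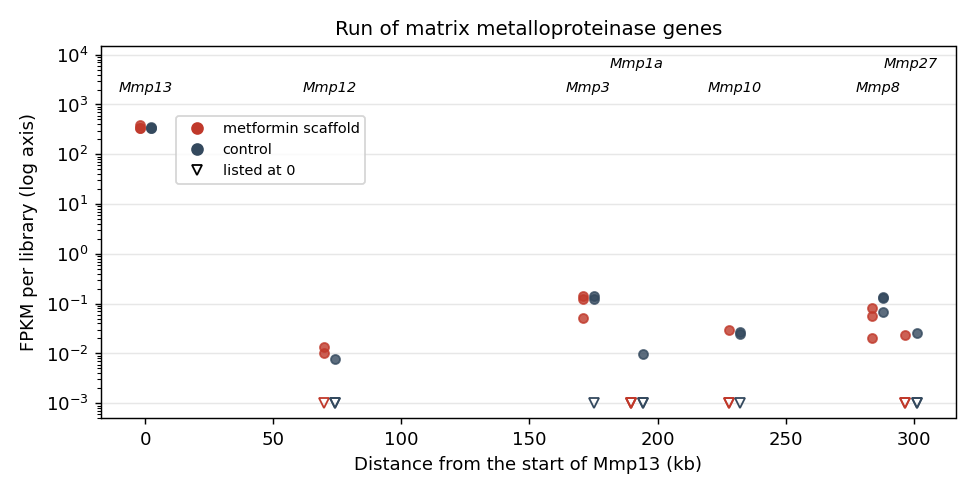
FPKM per library on a log axis for 7 MMP genes against the distance of each gene's start from that of Mmp13, in kb, with metformin scaffold libraries to the left of control libraries and open triangles for values listed at 0. Mmp13 stands at 331 to 382 FPKM, and the other 6 genes at 0.142 FPKM or less.

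The bases before the start sites of these genes are shown because 1 gene is highly expressed and its neighbours are not. They are the 130 bases before the RefSeq start nearest to the table's start (RefSeq, GRCm38.p6, plus strand, 5′ to 3′), which is at most 27 bases away. The windows are chr9:7272384-7272513 for Mmp13, chr9:7344267-7344396 for Mmp12, chr9:7445692-7445821 for Mmp3, chr9:7464011-7464140 for Mmp1a, chr9:7502212-7502341 for Mmp10, chr9:7558299-7558428 for Mmp8 and chr9:7571266-7571395 for Mmp27. Capitals mark TGANTCA, the site of AP-1 (the Fos and Jun dimer), and ACCACA or its reverse complement TGTGGT, the core site of RUNX factors.
Mmp13: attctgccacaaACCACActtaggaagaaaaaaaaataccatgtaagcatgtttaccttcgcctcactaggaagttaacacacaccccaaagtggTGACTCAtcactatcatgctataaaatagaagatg
Mmp12: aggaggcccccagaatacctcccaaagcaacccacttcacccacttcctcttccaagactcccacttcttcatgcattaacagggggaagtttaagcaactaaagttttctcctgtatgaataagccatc
Mmp3: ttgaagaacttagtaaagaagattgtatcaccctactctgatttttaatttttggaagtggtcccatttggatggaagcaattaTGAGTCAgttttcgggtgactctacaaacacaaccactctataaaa
Mmp1a: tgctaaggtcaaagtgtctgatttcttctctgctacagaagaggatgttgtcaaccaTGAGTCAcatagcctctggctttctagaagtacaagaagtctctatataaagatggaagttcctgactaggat
Mmp10: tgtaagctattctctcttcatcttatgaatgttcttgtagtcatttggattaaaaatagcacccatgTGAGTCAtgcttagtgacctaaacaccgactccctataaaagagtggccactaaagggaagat
Mmp8: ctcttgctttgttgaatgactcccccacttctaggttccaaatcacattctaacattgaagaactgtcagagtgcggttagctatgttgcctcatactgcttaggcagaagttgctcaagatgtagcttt
Mmp27: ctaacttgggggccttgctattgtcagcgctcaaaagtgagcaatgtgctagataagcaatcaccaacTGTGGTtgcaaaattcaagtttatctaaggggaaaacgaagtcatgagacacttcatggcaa

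AP-1 letters were present before Mmp13 (TGACTCA, starting 35 bases upstream), Mmp3 (46 bases), Mmp1a (73 bases) and Mmp10 (63 bases), and not in the windows of Mmp12, Mmp8 and Mmp27. The RUNX letters were present before Mmp13 (118 bases upstream) and Mmp27 (62 bases). Mmp13 was the only one of the 7 with both. In 250 bases upstream of 32851 RefSeq starts, searched on both strands, 6.75% held TGANTCA and 14% held the RUNX letters. Over the 27 members with a start in that table the shares were 14.8% and 14.8%, or 4 members each, and the AP-1 matches were all in this run. A match is a description of letters and not a bound site: Mmp3, Mmp1a and Mmp10 hold the AP-1 letters at mean levels under 0.1 FPKM.

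The membrane-type MMPs, which are anchored at the cell surface, were led by Mmp14, the activator of Mmp2. It had 79.2, 86.9 and 84.3 FPKM in scaffold libraries and 81.4, 74.7 and 73.4 in control libraries. The groups overlapped and edgeR did not call it (log2 fold change 0.17 ± 0.06, adjusted p = 0.165). Its partner inhibitor Timp2 stood at 3.15 ± 0.042 times Mmp14 in scaffold libraries and 3.32 ± 0.0599 times in control libraries, on the FPKM scale. Mmp16 (membrane-type 3 MMP) had 2.17, 2.19 and 2.14 FPKM in scaffold libraries, below the 2.58, 2.59 and 2.28 FPKM of the control libraries, and did not pass (log2 fold change -0.16 ± 0.07, edgeR adjusted p = 0.302). Mmp15, Mmp17, Mmp24 and Mmp25 averaged between 0.00409 and 0.167 FPKM.

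Of the remaining MMPs, 3 were above 5 FPKM and none of them passed. Mmp11 (stromelysin 3, activated inside the cell by furin) had 10.9 ± 0.925 FPKM in scaffold libraries and 10.9 ± 0.252 in control libraries (log2 fold change 0.04 ± 0.07, edgeR adjusted p = 0.835). Mmp19, a secreted MMP, had 15 ± 0.547 and 15.4 ± 0.396 FPKM (0.01 ± 0.06, edgeR adjusted p = 0.967), and Mmp28 (epilysin) 5.17 ± 0.373 and 5.46 ± 0.551 FPKM (-0.04 ± 0.09, edgeR adjusted p = 0.868), scaffold before control. An exon of Mmp19 overlaps Tmem198b on the opposite strand, and whether counting used strand is not given. Mmp23 stood at 0.204 ± 0.0712 FPKM in scaffold libraries and 0.157 ± 0.0641 in control libraries.

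Among the 7 ADAMTS genes of the proteoglycanase branch, which cut aggrecan and versican, Adamts1 was highest. It had 56.4, 53.4 and 53.5 FPKM in scaffold libraries and 66.7, 60.6 and 61.8 FPKM in control libraries. All scaffold libraries lay below all control libraries, yet edgeR did not call it (log2 fold change -0.17 ± 0.06, adjusted p = 0.121; DESeq2 adjusted p = 0.0212; adjusted p from 0.0212 to 0.334 over 15 alternatives). Adamts4, the aggrecanase 1 gene, had 13, 13.4 and 13 FPKM in scaffold libraries and 14.1, 12.2 and 12.1 in control libraries, with overlapping groups (0.08 ± 0.06, edgeR adjusted p = 0.578). Adamts5, aggrecanase 2, lies 53.1 kb from Adamts1 on chromosome 16 and stood at 0.865 ± 0.109 and 0.802 ± 0.0679 FPKM, scaffold before control, with overlapping groups (0.15 ± 0.12, edgeR adjusted p = 0.562). Adamts9, described after its values were seen, had 1.2, 1.19 and 1.1 FPKM in scaffold libraries and 1.62, 1.38 and 1.36 in control libraries (-0.28 ± 0.08, edgeR adjusted p = 0.0915; DESeq2 adjusted p = 0.0354). Adamts8, Adamts15 and Adamts20 averaged 0.0126 FPKM or less.

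Adamts6 was the ADAMTS gene that passed. Adamts6 and its close relative Adamts10 act on microfibrils, the fibrillin scaffolds of the matrix. Adamts6 (ENSMUSG00000046169, chromosome 13, 104287835 to 104496695) had 0.58, 0.521 and 0.546 FPKM in scaffold libraries and 1, 0.937 and 0.908 FPKM in control libraries. The groups lay far apart relative to their spread, at 0.549 ± 0.0295 FPKM in scaffold libraries and 0.95 ± 0.0494 in control libraries. Its log2 fold change was -0.75 ± 0.11 (edgeR adjusted p = 0.00416), from about 248 read pairs over the scaffold libraries and 417 over the control libraries. The call held in 12 of 13 alternatives that gave a value and was lost with limma on log2(FPKM + 1) over all genes (log2 fold change -0.33, adjusted p = 0.0886; adjusted p from 3.68e-06 to 0.0886 over the 13). Adamts10, given after its values were seen, had 4.06, 4.15 and 3.94 FPKM in scaffold libraries, above the 3.92, 3.69 and 3.65 FPKM of control libraries, and did not pass (0.15 ± 0.06, edgeR adjusted p = 0.225).

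The procollagen N-proteinases trim the amino ends of fibrillar procollagens. Adamts2 had 17.7, 19.1 and 17.2 FPKM in scaffold libraries and 24, 19.5 and 19.2 FPKM in control libraries. The highest scaffold value lay just below the lowest control value, and the gene did not pass (log2 fold change -0.18 ± 0.08, edgeR adjusted p = 0.281). Without control replicate 1, its highest library, the log2 fold change was -0.07. Adamts14 stood at 1.95 ± 0.156 FPKM in scaffold libraries and 2.07 ± 0.104 in control libraries.

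Adamts12 and Adamts7, which cut cartilage oligomeric matrix protein, were also outside the rule for named genes and are given after their values were seen. Adamts12 had 3.69, 3.46 and 3.8 FPKM in scaffold libraries and 3.45, 2.94 and 2.76 FPKM in control libraries. The lowest scaffold value was just above the highest control value, and edgeR did not call the gene (0.30 ± 0.08, adjusted p = 0.0692; DESeq2 adjusted p = 0.00918). Without control replicate 1, edgeR called it. Adamts7 stood at 0.299 ± 0.0542 and 0.281 ± 0.0281 FPKM, scaffold before control, and overlaps Tbc1d2b on the opposite strand.

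Adamts18 and Adamts17 had the largest fold changes of the tested members, at trace levels. Adamts18 had 90 estimated counts (about 22.5 read pairs) over the scaffold libraries and 24 (about 6) over the control libraries, and Adamts17 had 51 and 12. Each scaffold library lay above each control library in both genes, and neither passed (edgeR adjusted p = 0.109 for Adamts18 and 0.22 for Adamts17). The 95% intervals of the fold were 1.5 to 9.09 for Adamts18 and 1.16 to 15.2 for Adamts17. At such depth the size of these differences is poorly determined. Both genes entered the test through their scaffold libraries, as their control counts were too few for the filter's minimum of 10 in each library. Their separation and their rank by fold change are thus tied to that filter. The 11 members left untested, 6 MMP and 5 ADAMTS genes, had between 2 and 37 estimated counts over all 6 libraries.

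**Figure D3:**
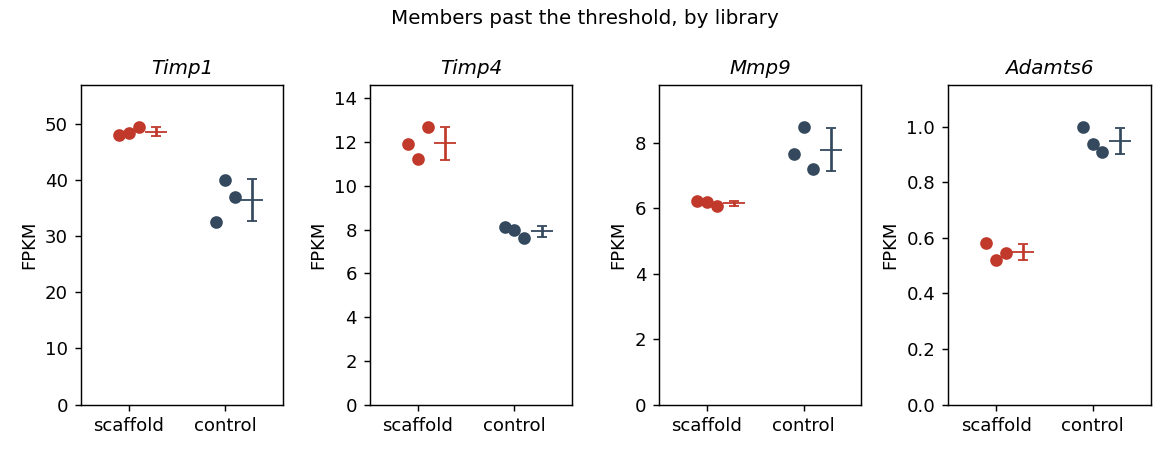
FPKM of the 4 members past the threshold, on linear axes from 0, with 3 metformin scaffold libraries to the left of 3 control libraries, and the mean with its SD beside the points. Timp1 and Timp4 are higher and Mmp9 and Adamts6 lower in each scaffold library than in any control library.

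The inhibitors gave the clearest rises. Timp4 (ENSMUSG00000030317, chromosome 6, 115241892 to 115252205), the TIMP with the most restricted expression in tissues, had 11.9, 11.2 and 12.7 FPKM in scaffold libraries and 8.13, 7.97 and 7.63 FPKM in control libraries. The gap between the groups was wider than the spread within either. Its log2 fold change was 0.63 ± 0.06 (edgeR adjusted p = 0.000517), a fold of 1.55 with a 95% interval of 1.41 to 1.7, and passed in all 15 alternatives (adjusted p from 4.07e-17 to 0.0416). Timp1 (ENSMUSG00000001131, chromosome X, 20870166 to 20874735), a secreted inhibitor that binds Mmp9 also in its zymogen form, had 48, 48.3 and 49.5 FPKM in scaffold libraries and 32.5, 40 and 36.9 FPKM in control libraries. Its control libraries were more spread than its scaffold libraries, and the groups did not overlap. Timp1 rose by 0.45 ± 0.08 (edgeR adjusted p = 0.00775), a fold of 1.37 with a 95% interval of 1.21 to 1.54. Its call was lost without scaffold replicate 3 (log2 fold change 0.43, edgeR adjusted p = 0.0533) and with limma over all genes (0.41, adjusted p = 0.108), and held in the other 13 alternatives (adjusted p from 4.03e-06 to 0.108 over all 15).

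Timp2, the most abundant inhibitor, did not pass. It had 251, 276 and 261 FPKM in scaffold libraries and 266, 248 and 248 FPKM in control libraries, with overlapping groups (log2 fold change 0.09 ± 0.06, edgeR adjusted p = 0.463). The 95% interval of its fold was 0.975 to 1.16. Timp3, which is bound to the matrix and inhibits MMPs and ADAMTS proteases, moved the other way from Timp1 and Timp4 in its values: 16.7, 17.2 and 17.3 FPKM in scaffold libraries and 20.4, 19.4 and 19.2 FPKM in control libraries. All scaffold values were below all control values, without an edgeR call (-0.16 ± 0.05, adjusted p = 0.104), whereas DESeq2 (adjusted p = 0.0251) and edgeR with library totals alone (adjusted p = 0.0446) called it lower (adjusted p from 0.0251 to 0.25 over 15 alternatives). Timp2 made up most of the summed TIMP FPKM. Timp1 and Timp4 together added up to 60.5 ± 1.46 FPKM in scaffold libraries and 44.4 ± 3.66 in control libraries, beside Timp2 at 263 ± 12.3 and 254 ± 10.

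The genes Timp1, Timp3 and Timp4 lie within the synapsin genes Syn1, Syn3 and Syn2 on the opposite strand. Syn1 had 1.53 FPKM in scaffold and 1.19 FPKM in control libraries (log2 fold change 0.40 ± 0.14, edgeR adjusted p = 0.158), and no exon of Timp1 touches an exon of Syn1. Syn2, touched by 1 exon of Timp4, had 0.526 and 0.428 FPKM, scaffold before control (0.33 ± 0.16, edgeR adjusted p = 0.303). Syn3, touched by 1 exon of Timp3, had 0.0131 and 0.0239 FPKM in the same order (-0.79 ± 0.71, edgeR adjusted p = 0.617). The host genes were thus at a small part of the level of the inhibitors within them.

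The 250 bases before the starts of Timp1 and Timp4 are shown because these inhibitors rose in the same libraries (RefSeq, GRCm38.p6, 5′ to 3′ on the gene's own strand). They are chrX:20869916-20870165, plus strand, and chr6:115252206-115252455, minus strand. Capitals mark ACGTG, the core of the hypoxia response element, searched with its reverse complement CACGT, with which it can overlap; TGANTCA was also searched.
Timp1: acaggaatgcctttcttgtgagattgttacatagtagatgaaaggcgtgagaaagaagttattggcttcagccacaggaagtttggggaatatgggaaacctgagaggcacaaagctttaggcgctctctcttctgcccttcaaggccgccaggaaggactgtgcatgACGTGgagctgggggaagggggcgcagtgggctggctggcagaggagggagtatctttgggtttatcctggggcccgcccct
Timp4: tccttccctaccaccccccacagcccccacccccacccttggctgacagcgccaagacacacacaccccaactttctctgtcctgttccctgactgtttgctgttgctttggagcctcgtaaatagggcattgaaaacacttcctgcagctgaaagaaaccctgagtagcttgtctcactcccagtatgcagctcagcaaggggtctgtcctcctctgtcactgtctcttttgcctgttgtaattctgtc

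Timp1 held ACGTG once, starting 82 bases upstream, and Timp4 held neither motif in this window. Of all 32851 RefSeq windows 16.6% held the ACGTG letters, and 5 of 27 members (18.5%) did: Adamts17, Adamts18, Adamts20, Mmp14 and Timp1. TGANTCA was in neither Timp1 nor Timp4. No motif searched was shared by these 2 windows.

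**Figure D4:**
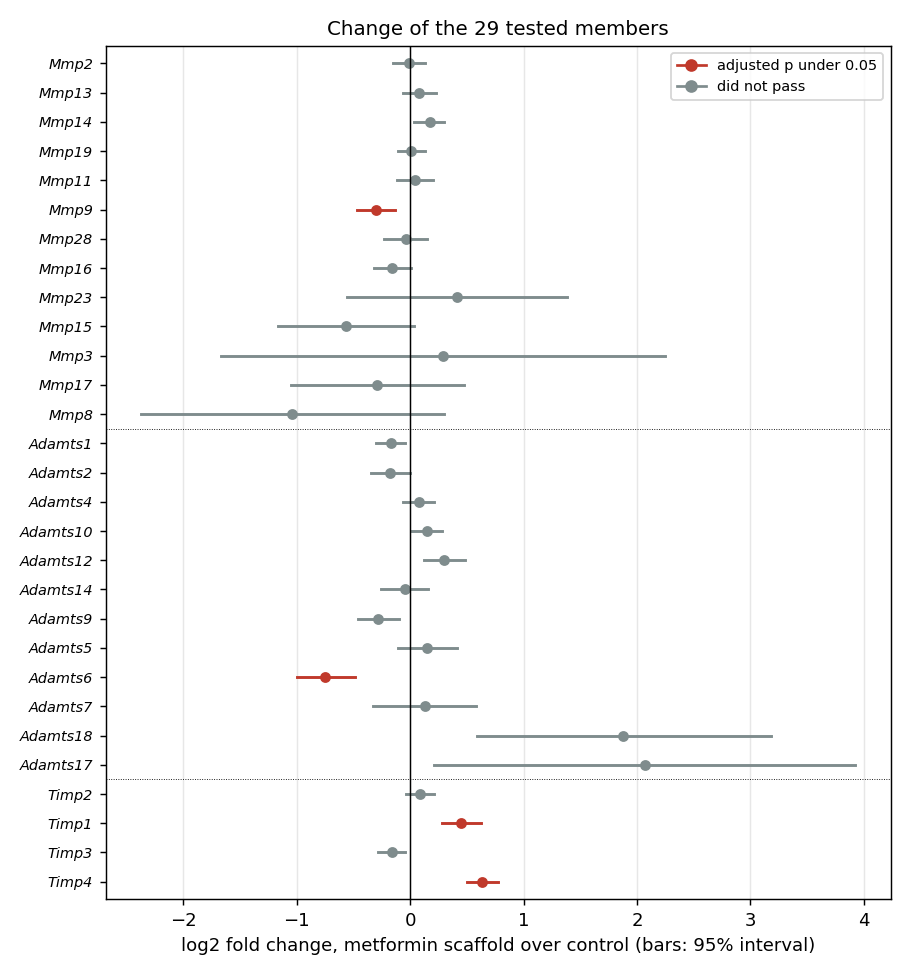
Log2 fold change of the 29 tested members, metformin scaffold over control, with 95% intervals from edgeR, ordered by family and then by mean level. Abundant genes such as Mmp2 and Mmp13 have narrow intervals around 0, the 4 members past the threshold are coloured, and genes at trace levels such as Mmp3 and Mmp8 have intervals from -1.67 to 2.25 and from -2.37 to 0.30.

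Across the tested members, 16 had a positive and 13 a negative log2 fold change. In FPKM, the groups did not overlap for 14 of 29 members (48.3%), beside 25.4% of all tested genes. By family these were 3 of 13 MMP, 8 of 12 ADAMTS and 3 of 4 TIMP genes. The MMP share (23.1%) was thus near that of all tested genes. Of the 8 ADAMTS genes, Adamts10, Adamts12, Adamts17 and Adamts18 were higher and Adamts1, Adamts2, Adamts6 and Adamts9 lower in each scaffold library. Adamts17 and Adamts18 entered the test through their scaffold libraries. Their control counts, 12 and 24 in total, were too few for the filter's minimum of 10 in each library. Their part in these shares, in the count of positive members and in the ADAMTS median is thus tied to that filter. The median log2 fold change was -0.01 over the tested MMP genes, 0.10 over the ADAMTS genes and 0.27 over the TIMP genes.

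Genes that act with these families were read from the same fit in 7 lists, whose median log2 fold changes were 0.16 for genes that activate or restrain MMPs, 0.04 for ADAM proteases, -0.24 for ADAMTS-like proteins, -0.22 for procollagen C-proteinases and enhancers, 0.11 for collagens, 0.12 for proteoglycans and glycoproteins and 0.16 for transcription factors, beside -0.0045 over all tested genes. Their counts of genes called by edgeR stand beside 2.85% of all tested genes called higher and 1.46% called lower. Their DESeq2 counts stand beside its own larger shares, 6.31% higher and 3.83% lower, or 10.1% in either direction. Of 12 tested genes that activate or restrain MMPs, 1 was higher and 11 did not pass (DESeq2 called 4 higher and 1 lower): Plaur, the receptor that holds urokinase at the cell surface, rose to 8.83 ± 1.11 FPKM in scaffold libraries, against 6.21 ± 0.608 in control libraries (log2 fold change 0.54 ± 0.11, edgeR adjusted p = 0.0142). Its ligand Plau stood at 5.54 ± 0.186 and 5.19 ± 0.538 FPKM, scaffold before control (edgeR adjusted p = 0.507). Of 10 tested ADAM proteases, the membrane-bound relatives, edgeR called 0 and DESeq2 called 2. In edgeR, 2 of the 10 had an unadjusted p under 0.05, beside 3141 of all 17375 tested genes. Of 6 tested ADAMTS-like proteins, which lack the protease domain, 2 were lower and 4 did not pass. Adamtsl4 fell to 11.7 ± 1.36 FPKM in scaffold libraries, against 15.9 ± 0.422 in control libraries (-0.40 ± 0.08, edgeR adjusted p = 0.0114), and Thsd4, also known as Adamtsl6, to 1.55 ± 0.191 against 2.12 ± 0.0629 FPKM (-0.41 ± 0.08, edgeR adjusted p = 0.0189). Of the procollagen C-proteinase group 1 of 4 tested genes passed: Pcolce2, an enhancer of the protease, fell to 2.63 ± 0.191 FPKM in scaffold libraries, against 3.69 ± 0.558 in control libraries (-0.45 ± 0.11, edgeR adjusted p = 0.0445).

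Among the substrates, 2 of 8 tested collagen chains rose, Col2a1 (cartilage collagen) to 56.4 ± 1.24 FPKM in scaffold libraries, against 31.8 ± 2.26 in control libraries (0.87 ± 0.06, edgeR adjusted p = 5.04e-05), and Col5a2 by 0.24 ± 0.05 (edgeR adjusted p = 0.0328). Col5a2 had 192 ± 3.59 and 167 ± 7.76 FPKM, scaffold before control. The fibrillar chains that Mmp13 cuts in bone, Col1a1 and Col1a2, did not pass (edgeR adjusted p = 0.877 and 0.836). Of 11 tested proteoglycans and glycoproteins 2 rose: Vcan (versican), a substrate of Adamts1, to 6.16 ± 0.352 FPKM in scaffold libraries, against 4.76 ± 0.177 in control libraries (0.41 ± 0.06, edgeR adjusted p = 0.00332), and the link protein gene Hapln1 by 0.83 ± 0.11 (edgeR adjusted p = 0.00178). Hapln1 had 2.62 ± 0.0931 and 1.52 ± 0.225 FPKM, scaffold before control. Acan, the aggrecan gene, was listed at 0 in 5 of 6 libraries. Of 14 tested transcription factors known to drive MMP genes 2 rose (5 with DESeq2 and 5 with the replicate block): the AP-1 subunits Fosl1 by 1.14 ± 0.22 (edgeR adjusted p = 0.0148) and Jund by 0.37 ± 0.08 (edgeR adjusted p = 0.0241). Fosl1 was at a low level, 1.86 ± 0.433 and 0.86 ± 0.182 FPKM, and Jund had 14.3 ± 0.928 and 11.4 ± 0.71, scaffold before control. Runx2, the osteoblast factor that acts on Mmp13, stood at 25 ± 1.1 FPKM in scaffold libraries and 29 ± 2.49 in control libraries and did not pass (edgeR adjusted p = 0.179). Of these called genes Col2a1 passed in all 15 alternatives and Vcan and Hapln1 in 14 each, while Col5a2, Pcolce2 and Thsd4 passed in 5, 6 and 7.

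The calls of Plaur, Adamtsl4, Thsd4, Pcolce2, Col5a2, Fosl1 and Jund were each lost without scaffold replicate 3 (edgeR adjusted p from 0.0697 to 0.19). Plaur was also lost without control replicate 1 or 2, Adamtsl4 without control replicate 3, and Thsd4 without any 1 of the control libraries. Pcolce2 was lost without each library but control replicate 3, and Col5a2 without scaffold replicate 2 or control replicate 2 or 3. Fosl1 was lost without scaffold replicate 2 or control replicate 3, and Jund without scaffold replicate 2 or control replicate 1 or 3. Over these further losses the edgeR adjusted p was 0.0534 to 0.173.

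**Figure D5:**
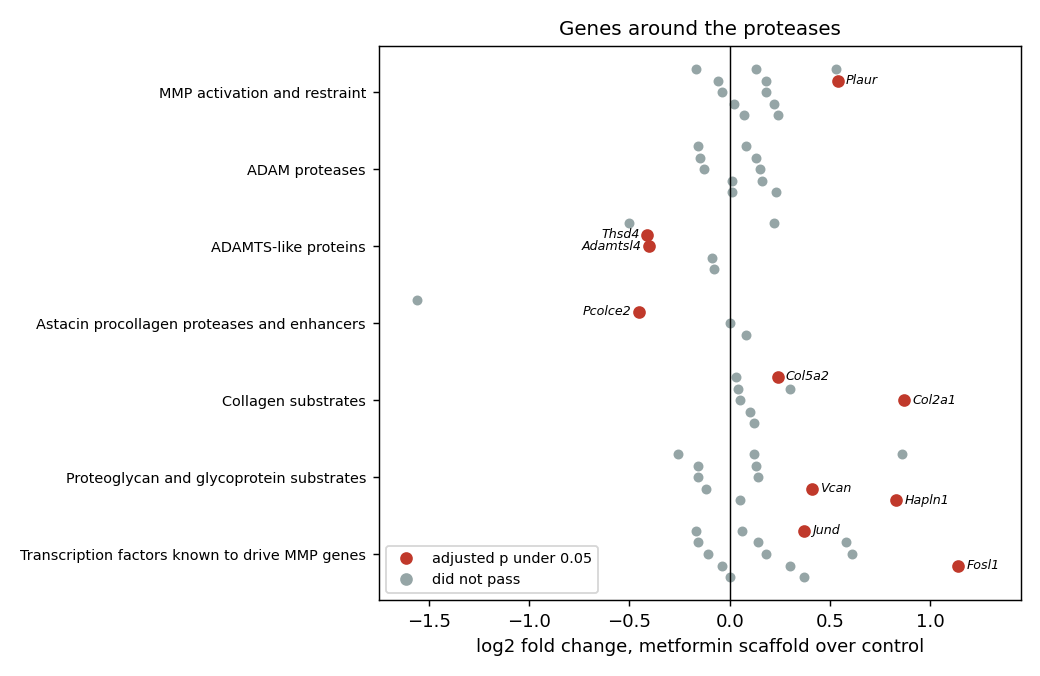
Log2 fold change, metformin scaffold over control, of the tested genes in 7 lists of genes that act with the proteases, with genes past the threshold coloured and named; points are spread vertically within a list for legibility. The largest rise is Fosl1 at 1.14, and the called genes of the ADAMTS-like and procollagen protease lists lie between -0.45 and -0.40.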

How the data were processed

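Poly(A) RNA of 3 metformin scaffold and 3 control libraries was sequenced as paired reads of 150 bp, per the labels' protocols. Among tools, StringTie, HISAT2, fastp, edgeR, DESeq2 and bcl2fastq 2.20 are listed per the submitters' processing notes, with no roles; the genome build, annotation and strandedness of counting are not given in the sources used here. Per gene and library, the authors deposited an FPKM value, normalised for transcript length and depth, and an estimated count. The deposited estimated counts pile up at 4, 8 and 12 (31.8% to 33.6% of values from 1 to 12), so a read pair was taken as about 4 counts. GENCODE release M21 (GRCm38) held 99.7% of the gene identifiers, 90.6% of these at identical start and end; coordinates are printed only for such members.

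Estimated counts were rounded and tested two-sided with edgeR 4.0.16 (R 4.3.3) by the quasi-likelihood test, after filterByExpr (minimum count 10) and TMM scaling, over all genes, with Benjamini-Hochberg adjustment at 0.05. Standard errors are the log2 fold change over the square root of F, and 95% intervals use the t distribution with the fit's degrees of freedom. The 15 alternatives were DESeq2 1.42.0, limma 3.58.1 (log2(FPKM + 1) over all genes, and pseudocounts 1 and 0.1 over genes averaging 1 FPKM or more), edgeR with DESeq2 size factors, library totals alone, no filter, counts divided by 4 or a replicate block, and each of 6 libraries left out. The fits were also run on counts simulated with the spread estimated from these libraries, but without about 4 counts to each read pair. No result here rests on that run. Full values are given for members past the threshold, members with a mean of at least 5 FPKM in either group and 12 members fixed for their known part in the skeleton, 18 in all, and for called genes of the lists. Members and lists were chosen with earlier results of these data known. Promoter windows come from RefSeq (GRCm38.p6), with the bases after the start left out; 27 of 40 members matched. Overlaps of members with other genes are not all reported here.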

Additional observations from a re-analysis of the deposited data

How the results depend on the processing

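Of the 15 alternatives, all kept the direction of Timp4, Timp1, Adamts6 and Mmp9 wherever they gave a value. The members called higher were 2, against 4 with DESeq2 and 1 with limma on log2(FPKM + 1) over all genes; leaving out a library gave 1 to 3. The members called lower were 2, against 3 with library totals alone (Timp3 added), 5 with DESeq2 and 0 with limma over all genes. Only Adamts6 was called lower with DESeq2 size factors in edgeR, with no filter on low counts, with the replicate block and without any 1 library. With limma at a mean FPKM of at least 1 (pseudocounts 1 and 0.1) the count was also 1. There Adamts6 was not tested and Mmp9 passed. With limma over all genes, 38 genes were higher and 29 lower, and 1 member passed. Libraries share only their replicate numbers: the deviations of same-numbered libraries correlated at -0.0467, 0.0116 and -0.0154 over 11814 genes, and no scaffold library correlated best with the control library of its own number. The replicate block changed 1 member call, that of Mmp9 (adjusted p = 0.073), and among the other named genes that of Col5a2 (0.0707), raised the called transcription factors to 5 against 2, and gave 460 higher and 191 lower genes.

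Over all genes, 496 were higher and 253 lower, so that 66.2% of calls were higher, against 53% with library totals alone (429 and 380). The counts were 317 and 115 with no filter, 883 and 536 with DESeq2, 328 higher and 326 higher with limma at pseudocounts of 1 and 0.1, and from 234 to 610 higher and 89 to 358 lower without 1 library. Of the 6 libraries, leaving out scaffold replicate 3 gave the lowest counts.

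The signs of 4 genes near 0 and of Mmp3 (0.29 ± 0.89), none of them called, turned: leaving out 1 library moved Mmp2 between -0.04 and 0.05 (0.03 without scaffold replicate 1); Mmp19 at -0.03 with library totals alone and with limma, and -0.02 when the first library of either group was left out; Mmp11 at -0.0025 and -0.0029 with limma and between -0.03 and 0.08 without 1 library; Mmp28 between -0.1 and 0.04 (0.0055 without scaffold replicate 3); and Mmp3 between -0.28 and 0.79. The cause was not tested. Depth limits the low members: Mmp3, with about 11.2 read pairs in scaffold and 9.5 in control libraries, had a 95% interval of the fold from 0.315 to 4.76.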
